A study of Homo sapiens with 9 samples.

Results

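The 3 libraries numbered series 2 were compared with the 6 libraries numbered series 1 and series 3 in A673 cells, a human cell line established from an Ewing sarcoma that carries an EWSR1-FLI1 fusion gene. They were chosen by the series number in the sample labels, with no measured value in the choice, and make up 3 of the 9 RNA-seq libraries of the study. Each series holds 1 library of cells given a scrambled control siRNA, 1 of cells given the siRNA siLRWD1-5 and 1 of cells given siLRWD1-6, both named for LRWD1, a protein that binds the origin recognition complex. All 9 cultures shared the cell line, the siRNA dose of 13 nM by reverse transfection with a lipid reagent, the time of 48 h to RNA isolation, and a medium that held Zeocin and blasticidin S. The labels say that the RNA came from 3 independent experiments and number the libraries from 1 to 3, but do not say outright that a number stands for an experiment. The line is a single genetic background, so the comparison covers variation between cultures of 1 line.

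NF-kB is a transcription factor held in the cytoplasm by IkB proteins such as the product of NFKBIA; when released it induces cytokines, chemokines, anti-apoptotic genes and its own inhibitors. Genes of mitosis are repressed in resting cells and switched on late in the cycle, and many of their promoters carry CCAAT boxes and the element TTTGAA, known as the cell cycle genes homology region. The SREBP factors, encoded by SREBF1 and SREBF2, are released from the endoplasmic reticulum when sterols are low and induce the enzymes of cholesterol and fatty acid synthesis.

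Total counts were 11971179 to 15674452 per library, and 13648 of 23368 gene symbols had enough counts to be tested. Levels are in CPM (reads of a gene per 1000000 counts of the library, scaled by TMM factors), and a difference is in log2 CPM unless a fold is named. LRWD1 itself stood at 54.6 CPM in scrambled series 2 against 49.1 and 49.3 CPM in scrambled series 1 and 3. In siLRWD1-5, LRWD1 was 11.3 against 10.6 and 10.4 CPM, and in siLRWD1-6 8.11 against 6.55 and 8.55 CPM. The siRNA groups did not overlap the scrambled group in any series. Of 10 Ewing sarcoma markers, 9 were tested and the tenth, CD99, had 0 to 50 counts in a library. Of 25 markers of other cell types, 8 had no count in any library, 24 had at most 20 counts in every library, and only CD68, a lysosomal protein of macrophages and of other cells, was tested. The summed level of the 25 was 29.2 to 48.8 CPM in series 2 and 29.1 to 45.3 CPM in series 1 and 3. CD68 alone stood at 26.8 to 46.2 CPM over the libraries, so the sum follows CD68 and says little of the other 24.

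The scrambled library of series 2 stood apart from the rest. Across 10898 genes with a mean of at least 5 CPM, the difference between series 2 and the mean of series 1 and 3 had an SD of 0.371 in scrambled, 0.166 in siLRWD1-5 and 0.141 in siLRWD1-6, on the scale log2(CPM + 0.5). The difference between series 3 and series 1 had an SD of 0.152, 0.164 and 0.154 in the same groups. In scrambled, 244 genes differed by at least 2-fold between series 2 and the mean of the others, against 10 in siLRWD1-5 and 3 in siLRWD1-6, and against 1, 2 and 1 genes between series 3 and series 1. The 2 SDs were thus of similar size in both siRNA groups, and that of series 2 was larger in scrambled. They are not on a par, because a mean of 2 libraries varies less than 1 library. With equal spread the series 2 SD would be the smaller. The scrambled library of series 2 had 12831417 counts, within the range of the others. Its TMM factor of 0.962 was the lowest of the 9, and its 10 most abundant genes held 6.12% of its counts, against 4.72% to 5.47% in the other libraries. The part of these values in the results was not tested. The comparisons were therefore run with and without this library.

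**Figure D1:**
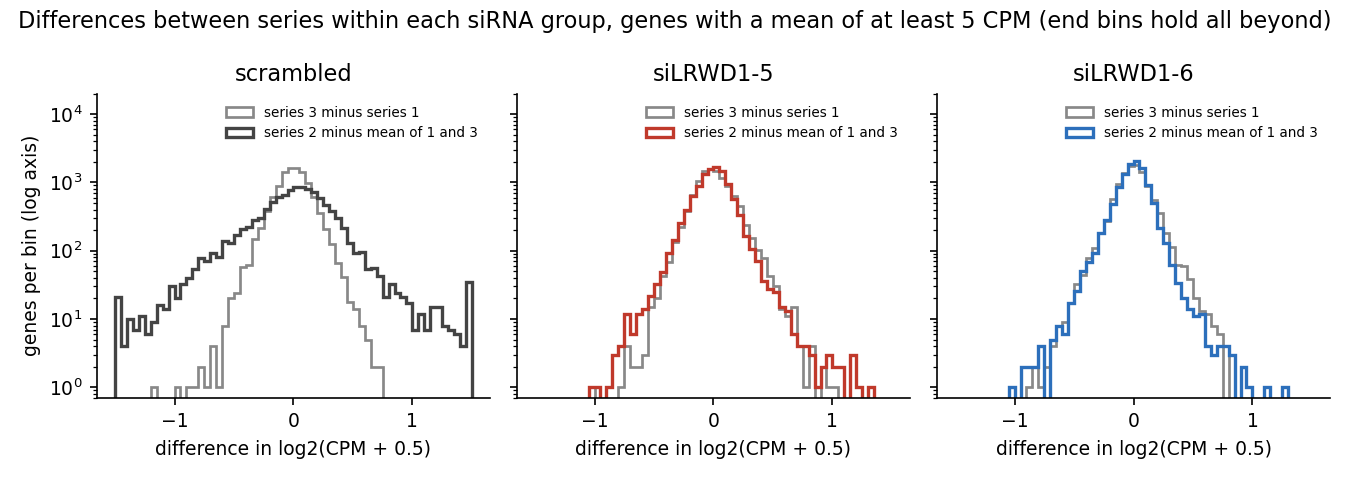
Histograms of the difference between series for 10898 genes in each siRNA group, with genes per bin on a log axis and the difference in log2(CPM + 0.5) on the other. The coloured line (series 2 minus the mean of series 1 and 3) is wider than the grey line (series 3 minus series 1) in scrambled, with SDs of 0.371 and 0.152, and lies on the grey line in siLRWD1-5 and siLRWD1-6.

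The series 2 difference was nevertheless shared in part between the groups. Across the 13648 genes its Pearson correlation was 0.404 between scrambled and siLRWD1-5, 0.259 between scrambled and siLRWD1-6 and 0.247 between the siRNA groups, which share no library in these differences. The same correlations were 0.058, 0.132 and 0.109 for series 3 minus series 1. These are correlations across genes, which are not independent and share a library's depth and scaling. Series 2 held the highest library of every group for 1352 genes (9.91%) and the lowest of every group for 1281 (9.39%), compared with 758 and 906 genes for series 1 and 530 and 681 for series 3.

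With siRNA group as a covariate, 137 of 13648 genes differed between series 2 and the others at an adjusted p under 0.05. The test was edgeR's quasi-likelihood test, and p-values were adjusted after Benjamini and Hochberg over all genes tested. Of these, 67 were higher (0.491% of genes tested) and 70 lower (0.513%) in series 2. Without the scrambled library of series 2 the count was 120 genes, of which 44 of the 67 higher and 41 of the 70 lower genes were still called. Leaving out another library moved the count to 14 without siLRWD1-5 series 2 and to 912 without siLRWD1-6 series 2. It was 24 without siLRWD1-6 series 1, 33 and 41 without siLRWD1-5 series 1 and 3, and 41 and 36 without scrambled series 1 and 3. An unadjusted p under 0.05 was given to 2889 genes.

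NF-kB targets had the highest median series 2 difference of the lists tested with group as a covariate. Of 41 listed NF-kB targets and inflammatory cytokines 37 were tested, and 12 were called higher and 0 lower in series 2 with group as a covariate, against 0.491% and 0.513% of all genes. Their median series 2 difference was 0.86 in scrambled, 0.55 in siLRWD1-5 and 0.46 in siLRWD1-6, beside medians of 0.014, 0.002 and 0.004 over all genes, and 33, 35 and 35 of the 37 members lay above the mean of series 1 and 3. The same medians between series 3 and series 1 were 0.059, 0.181 and 0.226. Without the scrambled library of series 2, 20 of the 37 were called higher; without siLRWD1-5 series 2 only 3 were, and without siLRWD1-5 or siLRWD1-6 series 1 only 6.

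Promoters of 30 of the 37 members are in the RefSeq table used here (GRCh38.p14, 250 bases before to 50 after the gene's start), and 15 of the 30 (50.0%) held the NF-kB consensus on either strand, beside 10.8% of 27305 promoters of the table. The list was drawn up as NF-kB targets, so this share describes the list and not the series 2 difference. Members called and not called were not compared. Promoters of 3 members with a match are printed in lower case with the match in capitals, because they show the element at an inhibitor, a chemokine and an anti-apoptotic gene that are described next; they were chosen after the values were seen. They lie at chr2:227813592-227813891 (plus strand), chr11:102317234-102317533 (plus strand) and chr14:35404700-35404999 (minus strand).
CCL20: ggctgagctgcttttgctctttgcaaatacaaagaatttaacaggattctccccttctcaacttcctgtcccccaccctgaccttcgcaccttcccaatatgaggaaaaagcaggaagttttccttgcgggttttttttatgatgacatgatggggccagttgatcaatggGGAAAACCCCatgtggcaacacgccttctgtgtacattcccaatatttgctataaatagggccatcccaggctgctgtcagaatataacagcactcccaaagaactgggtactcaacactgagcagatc
BIRC3: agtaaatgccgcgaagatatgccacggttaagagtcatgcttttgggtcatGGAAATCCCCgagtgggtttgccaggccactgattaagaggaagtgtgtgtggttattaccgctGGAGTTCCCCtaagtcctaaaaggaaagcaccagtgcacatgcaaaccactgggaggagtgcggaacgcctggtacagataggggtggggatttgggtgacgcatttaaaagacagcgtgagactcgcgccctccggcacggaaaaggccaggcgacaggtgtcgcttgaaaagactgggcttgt
NFKBIA: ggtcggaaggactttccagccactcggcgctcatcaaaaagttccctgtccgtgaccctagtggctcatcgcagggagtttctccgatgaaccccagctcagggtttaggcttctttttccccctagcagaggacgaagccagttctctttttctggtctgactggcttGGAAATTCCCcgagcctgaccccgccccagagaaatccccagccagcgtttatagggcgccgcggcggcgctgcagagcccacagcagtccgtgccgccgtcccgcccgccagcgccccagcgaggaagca
BIRC3 holds 2 matches and the others 1 each. The promoters of TRAF1, PTGS2 and SOD2 held no match in this window.

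Among the secreted factors, CCL20, a chemokine for CCR6-bearing lymphocytes and dendritic cells, stood at 14.5 CPM in scrambled series 2 against 5.37 and 5.86 CPM in scrambled series 1 and 3. In siLRWD1-5, CCL20 was 31.2 against 13.8 and 16 CPM, and in siLRWD1-6 27.1 against 11.7 and 12.3 CPM. Series 2 was the highest library of each group, and the difference over the groups was 1.19 ± 0.09 (SE, 2.28-fold higher, adjusted p = 6.62e-05). The interleukins IL1A and IL1B, initiators of inflammatory signalling, were also above the other libraries in each group: IL1B stood at 153 CPM in scrambled series 2 against 35.9 and 36.3 CPM in scrambled series 1 and 3. In siLRWD1-5, IL1B was 120.1 against 64.1 and 73.2 CPM, and in siLRWD1-6 48.2 against 22 and 32.7 CPM. The difference of IL1B over the groups was 1.28 ± 0.26 and missed the threshold (adjusted p = 0.0885), while it passed in scrambled (2.08 ± 0.16, adjusted p = 4.92e-06) and in the siRNA groups (0.82 ± 0.12, adjusted p = 0.0116). IL8, the neutrophil chemokine CXCL8, stood at 395 CPM in scrambled series 2 against 142 and 170.1 CPM in scrambled series 1 and 3. In siLRWD1-5, IL8 was 872 against 563 and 659 CPM, and in siLRWD1-6 439.9 against 236 and 278 CPM. IL8 differed by 0.64 ± 0.10 in the siRNA groups (adjusted p = 0.0317), and by the levels just given it differed more in scrambled. IL6, a cytokine of the acute phase, was low outside siLRWD1-5 and stood at 2.27 CPM in scrambled series 2 against 0.253 and 0.463 CPM in scrambled series 1 and 3. In siLRWD1-5, IL6 was 23.1 against 4.16 and 6.33 CPM, and in siLRWD1-6 0.365 against 0 and 0.0847 CPM. The IL6 difference over the groups was 2.27 ± 0.23 (adjusted p = 0.00062).

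Of the regulators of the pathway, NFKBIA, the inhibitor IkB alpha, stood at 159 CPM in scrambled series 2 against 127 and 125 CPM in scrambled series 1 and 3. In siLRWD1-5, NFKBIA was 275 against 223 and 241 CPM, and in siLRWD1-6 209 against 143 and 162 CPM. NFKB1, the precursor of the p50 subunit, stood at 124 CPM in scrambled series 2 against 93.7 and 100.1 CPM in scrambled series 1 and 3. In siLRWD1-5, NFKB1 was 183 against 149 and 145 CPM, and in siLRWD1-6 157 against 115 and 128 CPM. Both were highest in series 2 in each group with no overlap, by 0.35 ± 0.06 (adjusted p = 0.0165) and 0.35 ± 0.05 (adjusted p = 0.0118), and the interaction of scrambled with the siRNA groups, -0.02 ± 0.11 and 0.02 ± 0.11, was not called. TNFAIP3, the ubiquitin-editing enzyme A20 that shuts the pathway off, differed by 1.56 ± 0.13 in scrambled and by 0.53 ± 0.09 in the siRNA groups, and the difference between these was called (interaction 1.02 ± 0.16, adjusted p = 0.00164).

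Of the effectors, SOD2, the mitochondrial superoxide dismutase, stood at 349.8 CPM in scrambled series 2 against 118 and 128 CPM in scrambled series 1 and 3. In siLRWD1-5, SOD2 was 441 against 242 and 273 CPM, and in siLRWD1-6 261 against 158 and 169 CPM. It rose by 1.00 ± 0.14 over the groups (2-fold, adjusted p = 0.0326), by 1.51 ± 0.08 in scrambled and by 0.73 ± 0.06 in the siRNA groups. The SOD2 interaction was called (0.78 ± 0.10). TRAF1, an adaptor of TNF receptors, stood at 37.4 CPM in scrambled series 2 against 17.4 and 18.3 CPM in scrambled series 1 and 3. In siLRWD1-5, TRAF1 was 53.3 against 31.9 and 34.6 CPM, and in siLRWD1-6 56.5 against 30.7 and 37.3 CPM. Over the groups TRAF1 rose by 0.82 ± 0.08 (adjusted p = 0.000687). BIRC3, the ubiquitin ligase cIAP2 that blocks cell death, stood at 46.9 CPM in scrambled series 2 against 21.5 and 25.8 CPM in scrambled series 1 and 3. In siLRWD1-5, BIRC3 was 123 against 76.8 and 72.5 CPM, and in siLRWD1-6 20.5 against 8.36 and 13.2 CPM. Over the groups BIRC3 rose by 0.87 ± 0.11 (adjusted p = 0.0101). PTGS2, the prostaglandin-forming enzyme COX-2, stood at 12.4 CPM in scrambled series 2 against 4.04 and 6.4 CPM in scrambled series 1 and 3. In siLRWD1-5, PTGS2 was 21.9 against 9.58 and 12.4 CPM, and in siLRWD1-6 10.8 against 6.76 and 5.93 CPM. Over the groups PTGS2 rose by 1.01 ± 0.14 (adjusted p = 0.0101). Series 2 was the highest library of each group for these 4 genes, at base levels that differed between groups; BIRC3 in series 2 of siLRWD1-6 was below every scrambled library.

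The scrambled and siRNA terms of series 2 were then tested apart, in 1 fit whose estimate of the spread they share. In the siRNA groups alone 16 of the 37 NF-kB members were called higher and 0 lower, beside 0.484% and 0.374% of all genes; without siLRWD1-5 series 2 there were 5. In scrambled alone 24 were higher and 3 lower, beside 13% and 12.1% of all genes. The interaction, the series 2 difference in scrambled minus that in the siRNA groups, was called higher for 10 members and lower for 3, beside 5.52% and 5.47%. The 3 members lower in scrambled series 2 were CXCL12, TNFAIP6 and VCAM1. VCAM1, an adhesion receptor for leukocytes, stood at 2.03 CPM in scrambled series 2 against 5.5 and 5.71 CPM in scrambled series 1 and 3. In siLRWD1-5, VCAM1 was 18.3 against 12.6 and 10.8 CPM, and in siLRWD1-6 6.87 against 7.32 and 5.59 CPM. VCAM1 had an interaction of -1.82 ± 0.34 (adjusted p = 0.000342). CCL2, a monocyte chemokine that was not among those lower in scrambled, stood at 109 CPM in scrambled series 2 against 107 and 88 CPM in scrambled series 1 and 3. In siLRWD1-5, CCL2 was 572 against 404 and 367 CPM, and in siLRWD1-6 160.0 against 101 and 112 CPM. It rose by 0.58 ± 0.07 in the siRNA groups (adjusted p = 9.55e-05) and had an interaction of -0.42 ± 0.13 (adjusted p = 0.0356).

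**Figure D2:**
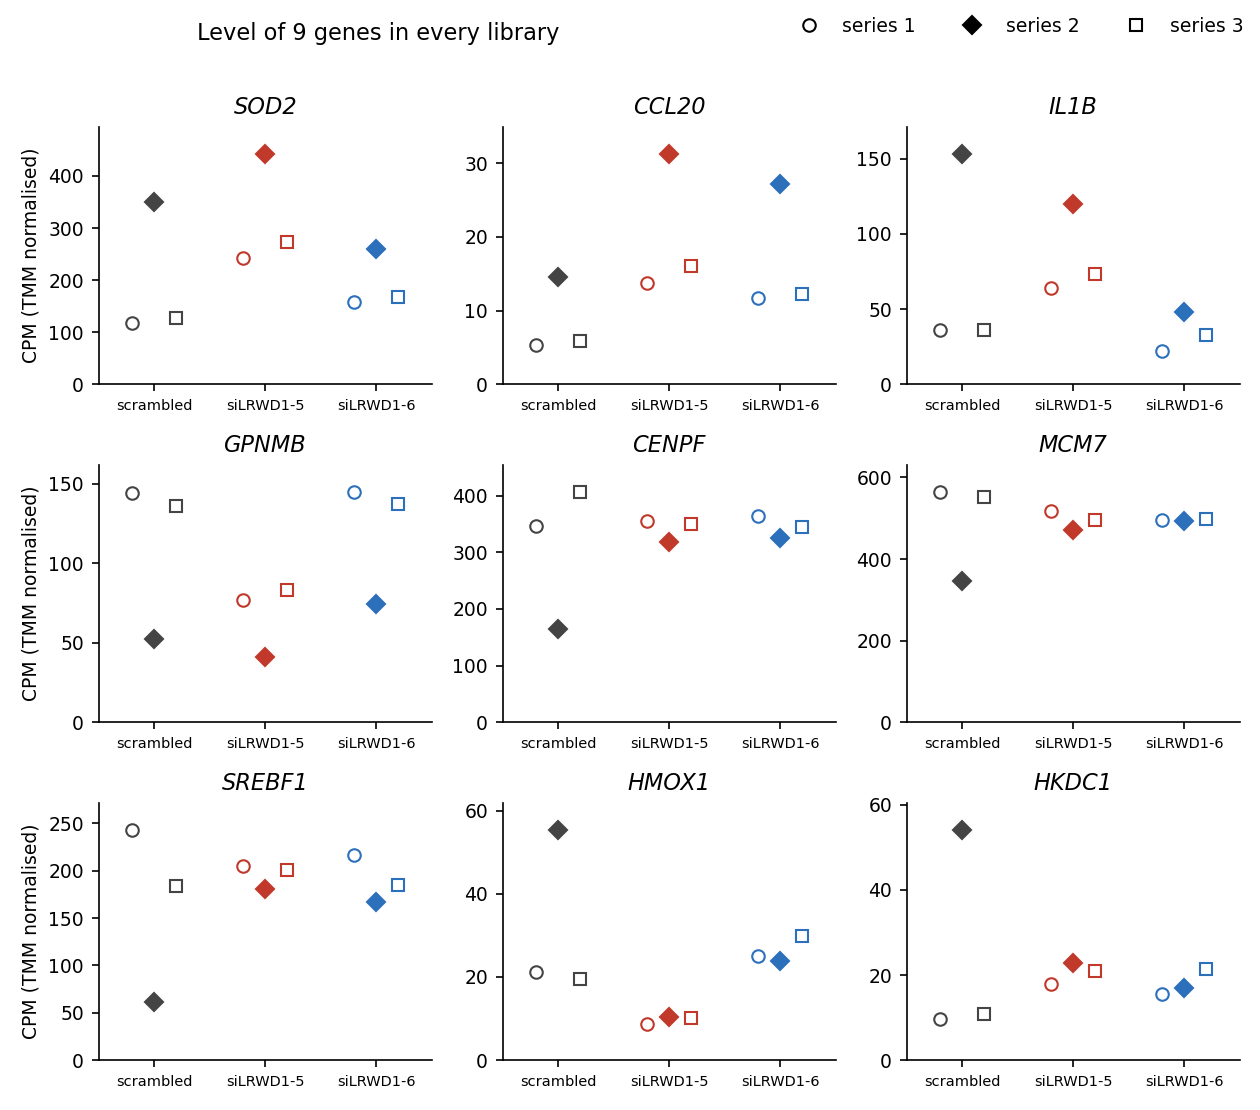
CPM of 9 genes in each of the 9 libraries (1 point per library, filled diamonds for series 2, open circles and squares for series 1 and 3). SOD2, CCL20 and IL1B are highest and GPNMB lowest in series 2 in every group. SOD2, IL1B and GPNMB also differ more in scrambled than in the siRNA groups. The interaction is given for SOD2 (0.78) and GPNMB (-0.47) and was called for both. CENPF, MCM7, SREBF1, HMOX1 and HKDC1 are set apart in scrambled series 2, by differences whose interaction was called.

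Other genes higher in series 2 of every group included LRRC55, LAMA4, TNFSF15 and BTBD11. TNFSF15, a cytokine of the TNF family, stood at 23.1 CPM in scrambled series 2 against 9.6 and 8.41 CPM in scrambled series 1 and 3. In siLRWD1-5, TNFSF15 was 47.6 against 26.5 and 34.6 CPM, and in siLRWD1-6 40.9 against 19.4 and 27.9 CPM. Over the groups TNFSF15 rose by 0.90 ± 0.15 (adjusted p = 0.0372). LAMA4, a laminin chain of basement membranes, rose by 1.10 ± 0.21 (adjusted p = 0.034). LAMA4 and BTBD11 differed more in scrambled (1.87 and 1.42) than in the siRNA groups (0.71 and 0.47), and their interaction was called. BTBD11 was not called in the siRNA groups, and in siLRWD1-6 it stood at 4.9 against 3.14 and 4.74 CPM.

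Among genes lower in series 2 of every group, GPNMB, a glycoprotein of lysosomes and melanosomes, stood at 52.2 CPM in scrambled series 2 against 144 and 136 CPM in scrambled series 1 and 3. In siLRWD1-5, GPNMB was 40.8 against 77.2 and 83 CPM, and in siLRWD1-6 74.1 against 145 and 137 CPM. It fell by 2.15-fold over the groups (-1.10 ± 0.09, adjusted p = 9.93e-05) and in the siRNA groups alone by 1.93-fold (adjusted p = 3.84e-11). HSPB8, a small heat shock protein of chaperone-assisted autophagy, stood at 3.73 CPM in scrambled series 2 against 8.97 and 7.48 CPM in scrambled series 1 and 3. In siLRWD1-5, HSPB8 was 3.63 against 7.94 and 7.63 CPM, and in siLRWD1-6 4.38 against 7.25 and 9.65 CPM. For HSPB8 this was a difference of -1.06 ± 0.14 (adjusted p = 0.0101). NR2F1, an orphan nuclear receptor of neural development, stood at 2.92 CPM in scrambled series 2 against 9.22 and 7.79 CPM in scrambled series 1 and 3. In siLRWD1-5, NR2F1 was 4.22 against 6.74 and 8.44 CPM, and in siLRWD1-6 1.75 against 3.9 and 3.47 CPM. For NR2F1 this was a difference of -1.14 ± 0.17 (adjusted p = 0.0119). In none of these did series 2 overlap the other libraries of its group. For GPNMB the drop was larger in scrambled, with a called interaction of -0.47 ± 0.12. EPHA5, an ephrin receptor, and ANPEP, an aminopeptidase of the cell surface, differed by -0.82 ± 0.11 and -0.75 ± 0.12 over the groups (adjusted p = 0.0101 and 0.0147), and for ANPEP the siRNA groups alone gave -0.79 ± 0.13. TRERF1, MBOAT1, SORL1, DOCK11 and TENC1 were the remaining genes of the 10 with the largest drop. Of these, MBOAT1 and SORL1 were not called in the siRNA groups (-0.54 and -0.44) and fell more in scrambled (-1.28 and -1.33). For SORL1 the interaction was called (-0.89 ± 0.26).

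Taken alone, the scrambled library of series 2 differed from scrambled series 1 and 3 in 3426 genes (25.1%), with 1773 higher and 1653 lower; 231 and 265 of these differed by at least 2-fold. DESeq2 called 1747 genes, 850 higher and 897 lower. This is 1 library against 2, and its error is the spread between series 1 and 3 within the groups, which the lone library is assumed to share. In the siRNA groups, the mean series 2 difference was called for 117 genes, 66 higher and 51 lower. Of the 66, 60 (90.9%) were among the 1773 higher in scrambled (3.38% of those), and of the 51, 44 (86.3%) were among the 1653 lower (2.66%); no gene was called in opposite directions. The siRNA count was 7 without siLRWD1-5 series 2, 79 without siLRWD1-6 series 2 and 69 without siLRWD1-6 series 1. The interaction was called for 1500 genes, 753 with a higher and 747 with a lower difference in scrambled; without siLRWD1-6 series 2 the count was 852. With library totals in place of TMM factors, the interaction was called higher for 575 and lower for 992 genes and the scrambled difference for 1227 and 2122.

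**Figure D3:**
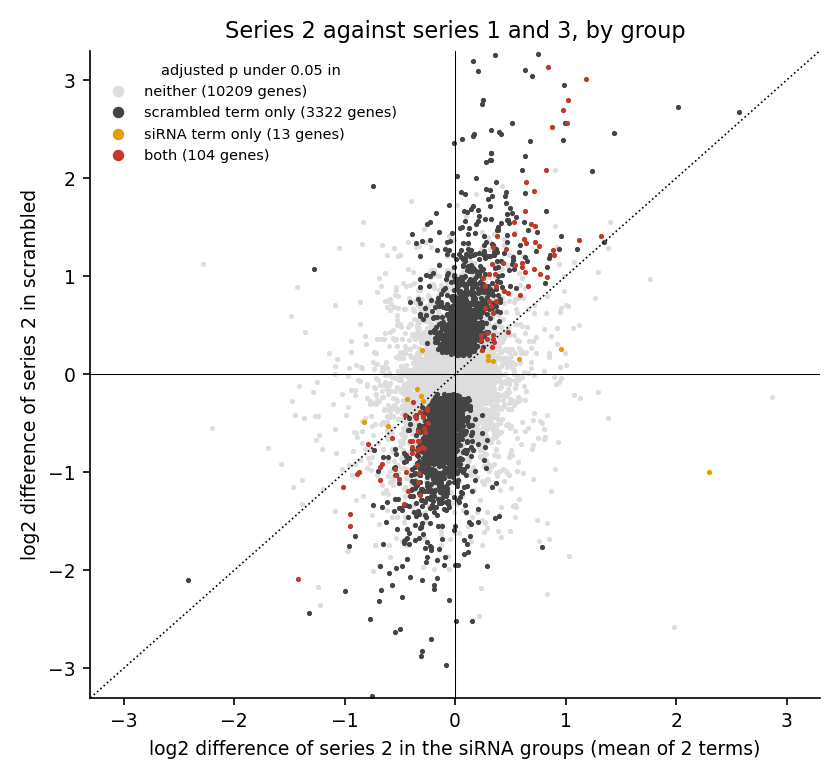
The log2 difference of series 2 in scrambled (vertical) against the mean of the terms in the siRNA groups (horizontal), 1 point per gene for 13648 genes, of which 17 lie beyond the axes; the dotted line marks equal differences. The 3322 genes called in scrambled only form a steep cloud near a siRNA difference of 0, and the 104 genes called in both lie in the upper right and lower left.

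Of the 30 lists with at least 5 tested members, mitosis had the highest share of members called in scrambled series 2. All 72 listed genes were tested, and 71 were called lower in scrambled series 2 and 0 higher, beside 12.1% and 13% of all genes; BUB3 was the exception. None of the 72 was called in the siRNA groups alone, where the median difference was -0.10, and 69 of 72 were called lower by the interaction (62 without siLRWD1-6 series 2). On the log2(CPM + 0.5) scale the median was -0.788 in scrambled, with 72 of 72 below, -0.157 in siLRWD1-5, with 70 below, and -0.032 in siLRWD1-6, with 44 below. The summed level of the 72 genes was 6050 CPM in scrambled series 2 and 8623.5 to 10514 CPM in scrambled series 1 and 3 and in the 6 siRNA libraries, apart from 7839 CPM in siLRWD1-5 series 2. With group as the covariate, where the 3 series 2 libraries are pooled, 0 of 72 were called, and 38 were when siLRWD1-6 series 2 was left out. In RNA from whole cultures, fewer cells in mitosis and less of these RNAs per cell cannot be told apart.

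Promoters of 59 of the 72 are in the RefSeq table. TTTGAA was found on either strand in 41 of the 59 (69.5%), beside 15.4% of 27305 promoters, and CCAAT in 43 (72.9%), beside 35.7%. The 27305 are all promoters of the table, not only those of genes tested here. These shares describe the list, which was drawn up as genes of mitosis, and not the series 2 difference. Matches of the 2 motifs may share a base. Promoters with matches to both are shown with the matches in capitals for a kinetochore protein, an activator of the anaphase promoting complex and a mitotic cyclin, chosen after the values were seen. They lie at chr1:214602945-214603244, chr1:43358731-43359030 and chr15:59104896-59105195, each on the plus strand.
CENPF: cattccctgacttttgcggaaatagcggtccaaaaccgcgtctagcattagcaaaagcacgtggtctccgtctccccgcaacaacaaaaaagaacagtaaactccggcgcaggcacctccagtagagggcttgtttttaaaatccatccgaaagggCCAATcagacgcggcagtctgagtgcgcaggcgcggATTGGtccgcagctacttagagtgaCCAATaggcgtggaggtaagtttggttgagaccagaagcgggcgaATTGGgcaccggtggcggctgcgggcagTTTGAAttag
CDC20: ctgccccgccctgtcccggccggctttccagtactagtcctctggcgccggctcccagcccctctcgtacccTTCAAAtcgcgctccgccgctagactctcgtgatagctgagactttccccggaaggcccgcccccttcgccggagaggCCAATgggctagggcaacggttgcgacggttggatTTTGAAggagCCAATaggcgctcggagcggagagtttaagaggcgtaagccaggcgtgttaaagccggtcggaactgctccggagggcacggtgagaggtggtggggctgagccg
CCNB2: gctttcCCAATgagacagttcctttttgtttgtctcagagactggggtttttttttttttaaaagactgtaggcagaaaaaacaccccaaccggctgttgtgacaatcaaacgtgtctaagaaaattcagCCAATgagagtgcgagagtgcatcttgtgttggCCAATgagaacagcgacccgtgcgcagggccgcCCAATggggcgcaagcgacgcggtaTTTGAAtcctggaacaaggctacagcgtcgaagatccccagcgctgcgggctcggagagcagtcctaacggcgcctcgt
Where a match lies on the opposite strand, it reads TTCAAA or ATTGG.

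CENPF stood at 165 CPM in scrambled series 2 against 347 and 406 CPM in scrambled series 1 and 3. In siLRWD1-5, CENPF was 318 against 355 and 350.0 CPM, and in siLRWD1-6 326 against 363 and 345 CPM. Its difference was -1.19 ± 0.09 in scrambled (2.28-fold lower, adjusted p = 2.58e-11) and -0.13 ± 0.06 in the siRNA groups (adjusted p = 0.432), and the interaction was -1.05 ± 0.11 (adjusted p = 9.36e-08). MKI67, the proliferation antigen Ki-67, stood at 177 CPM in scrambled series 2 against 366 and 446 CPM in scrambled series 1 and 3. In siLRWD1-5, MKI67 was 349 against 393 and 381 CPM, and in siLRWD1-6 326 against 343 and 363 CPM. CDC20 stood at 109 CPM in scrambled series 2 against 179 and 170.0 CPM in scrambled series 1 and 3. In siLRWD1-5, CDC20 was 34.7 against 38.8 and 38.2 CPM, and in siLRWD1-6 148 against 153 and 160.1 CPM. CDC20 had an interaction of -0.57 ± 0.11 (adjusted p = 0.000438). CCNB2, cyclin B2, stood at 52.8 CPM in scrambled series 2 against 94.6 and 88.6 CPM in scrambled series 1 and 3. In siLRWD1-5, CCNB2 was 87.1 against 95.6 and 89.8 CPM, and in siLRWD1-6 80 against 85.9 and 77.1 CPM. For each, scrambled series 2 lay below every other scrambled library and below the siRNA libraries, except those of siLRWD1-5 for CDC20, which were lower in all 3 series. TOP2A, the topoisomerase that untangles chromosomes, differed by -0.95 ± 0.09 in scrambled and -0.08 ± 0.06 in the siRNA groups, and AURKB, a kinase of the chromosomal passenger complex, by -0.90 ± 0.10 and -0.04 ± 0.07.

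Genes of DNA replication and of DNA repair were lower in scrambled series 2 as well, beside the 12.1% of all genes called lower there and the 5.47% called lower by the interaction. Of 63 replication genes, 54 were called lower in scrambled series 2 and 0 higher, 0 in the siRNA groups and 46 lower by the interaction (30 without siLRWD1-6 series 2), with medians of -0.559, -0.129 and -0.037 in scrambled, siLRWD1-5 and siLRWD1-6. TTTGAA was in the promoters of 3 of 53 replication genes (5.66%), and CCAAT in 29 (54.7%). MCM7, a subunit of the replicative helicase, stood at 347 CPM in scrambled series 2 against 564 and 553 CPM in scrambled series 1 and 3. In siLRWD1-5, MCM7 was 472 against 517 and 495 CPM, and in siLRWD1-6 494 against 497 and 498 CPM. E2F2, a transcription factor of S phase genes, stood at 22.6 CPM in scrambled series 2 against 50.5 and 49.2 CPM in scrambled series 1 and 3. In siLRWD1-5, E2F2 was 42.5 against 52.2 and 50.3 CPM, and in siLRWD1-6 35.4 against 36.2 and 29.2 CPM. E2F2 had an interaction of -1.06 ± 0.15 (adjusted p = 1.3e-05). Of 55 genes of the DNA damage response and repair, 36 were called lower in scrambled series 2 and 0 higher, and 25 by the interaction (14 without siLRWD1-6 series 2). FANCD2, the crosslink repair protein, stood at 48.8 CPM in scrambled series 2 against 90.5 and 98.3 CPM in scrambled series 1 and 3. In siLRWD1-5, FANCD2 was 71.9 against 78 and 80.5 CPM, and in siLRWD1-6 82.6 against 82.1 and 83.3 CPM. CDKN1B, the inhibitor p27 that holds cells before S phase, was also lower. It stood at 28.4 CPM in scrambled series 2 against 61.3 and 60.3 CPM in scrambled series 1 and 3, with a called interaction of -0.91 ± 0.14. The 37 tested cell cycle brakes and FOXO targets went both ways in scrambled series 2. Of these, 10 were called higher and 5 lower, beside 13% and 12.1% of all genes. Called or not, 19 lay above 0 and 18 below, with a median of 0.006. By the interaction 4 of these 37 were called higher and 2 lower, beside 5.52% and 5.47% of all genes. Called or not, 23 were above 0 and 14 below, with a median of 0.101.

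Genes of cholesterol and fatty acid synthesis were also lower in scrambled series 2. Of 41 tested, 27 were called lower and 1 (NPC1, which moves cholesterol out of lysosomes) higher, 0 were called in the siRNA groups, and 22 were lower and 1 higher by the interaction. Of all genes, 12.1% were lower and 13% higher in scrambled series 2, and 5.47% lower and 5.52% higher by the interaction. The median difference was -0.476 in scrambled, -0.075 in siLRWD1-5 and -0.028 in siLRWD1-6; between series 3 and series 1 it was -0.209, -0.145 and -0.025, so the median also lay below 0 between scrambled series 1 and 3. SREBF1, the sterol-regulated factor itself, stood at 61.6 CPM in scrambled series 2 against 243 and 183 CPM in scrambled series 1 and 3. In siLRWD1-5, SREBF1 was 181 against 205 and 200.2 CPM, and in siLRWD1-6 167 against 216 and 185 CPM. Its difference was -1.79 ± 0.20 in scrambled (3.46-fold lower, adjusted p = 0.000836) and -0.22 ± 0.12 in the siRNA groups, with an interaction of -1.58 ± 0.23 (adjusted p = 0.00695). FADS1, a fatty acid desaturase, stood at 259 CPM in scrambled series 2 against 551 and 492 CPM in scrambled series 1 and 3. In siLRWD1-5, FADS1 was 404 against 486 and 445 CPM, and in siLRWD1-6 527 against 552 and 486 CPM. ABCA1, a cholesterol exporter of the plasma membrane and a target of LXR rather than of SREBP, was lower too, at 1.05 CPM in scrambled series 2 against 4.68 and 3.4 CPM in scrambled series 1 and 3, while INSIG1, a retention protein for SREBP, was not called (-0.23 ± 0.25, adjusted p = 0.591).

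**Figure D4:**
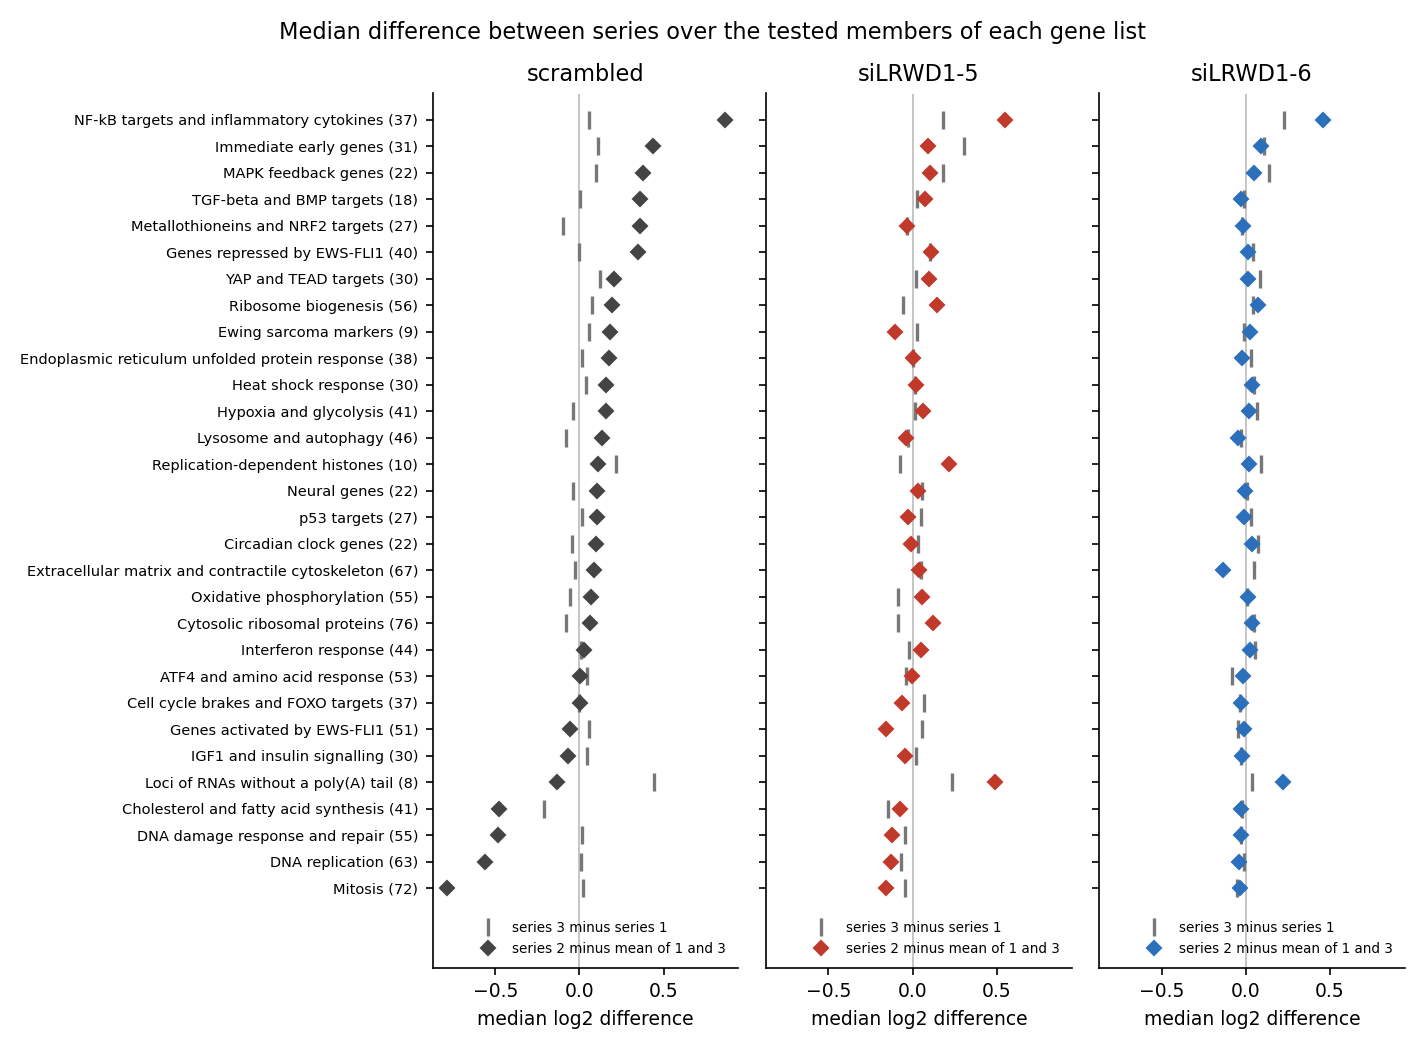
Median log2 difference over the tested members of 30 gene lists (number of members in brackets) in each siRNA group, with diamonds for series 2 minus the mean of series 1 and 3 and grey bars for series 3 minus series 1. NF-kB targets lie to the right in all groups (0.862, 0.548 and 0.460), and mitosis, DNA replication, repair and cholesterol genes lie to the left in scrambled (-0.788, -0.559, -0.486 and -0.476).

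Several groups were higher in scrambled series 2. Of 27 metallothioneins and targets of NRF2, the factor that answers oxidative stress, 15 were called higher and 0 lower, and 10 by the interaction (6 without siLRWD1-6 series 2), beside 13% and 5.52% of all genes. TXNRD1, thioredoxin reductase, stood at 1099 CPM in scrambled series 2 against 605 and 622 CPM in scrambled series 1 and 3. In siLRWD1-5, TXNRD1 was 759 against 792 and 774 CPM, and in siLRWD1-6 1226 against 1121 and 1112 CPM. The TXNRD1 difference was 0.84 ± 0.07 in scrambled and 0.04 ± 0.05 in the siRNA groups. HMOX1, the haem-degrading oxygenase, stood at 55.3 CPM in scrambled series 2 against 21.1 and 19.4 CPM in scrambled series 1 and 3. In siLRWD1-5, HMOX1 was 10.4 against 8.76 and 10.2 CPM, and in siLRWD1-6 23.7 against 24.9 and 29.8 CPM. HMOX1 had an interaction of 1.47 ± 0.17 (adjusted p = 5.53e-07). Scrambled series 2 lay outside the range of scrambled series 1 and 3 for both, and for HMOX1 above all other libraries.

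Of 22 feedback genes of MAPK signalling, 15 were called higher and 1 (ETV1) lower in scrambled series 2, and 8 were called higher by the interaction (5 without siLRWD1-6 series 2). The share of all genes was 13% higher and 12.1% lower in scrambled series 2, and 5.52% and 5.47% by the interaction, which applies to each list that follows. DUSP5, a phosphatase that inactivates ERK, stood at 162 CPM in scrambled series 2 against 61.7 and 73.9 CPM in scrambled series 1 and 3. In siLRWD1-5, DUSP5 was 57.6 against 40.5 and 50.7 CPM, and in siLRWD1-6 108 against 87 and 105 CPM. Of 31 immediate early genes 18 were called higher and 1 (JUND) lower, or 11 higher without scrambled series 1, and the interaction was called higher for 6 and lower for 1 (3 higher without scrambled series 1, and 13 and 10 without siLRWD1-5 and siLRWD1-6 series 1). In that list FOS and EGR1, among the first genes to answer a growth signal, were not called: EGR1 stood at 53.6 CPM in scrambled series 2 against 49.2 and 58.5 CPM in scrambled series 1 and 3. Of 40 genes listed as repressed by EWS-FLI1, 18 were higher and 5 lower in scrambled series 2, and 9 were higher and 2 lower by the interaction (6 and 2 without siLRWD1-6 series 2). NT5E, on this list, the ectonucleotidase CD73, stood at 748 CPM in scrambled series 2 against 393 and 385 CPM in scrambled series 1 and 3. In siLRWD1-5, NT5E was 639 against 622 and 641 CPM, and in siLRWD1-6 638 against 674 and 691 CPM. COL3A1, a collagen chain on the same list, went down, at 874 CPM in scrambled series 2 against 2140 and 1829 CPM in scrambled series 1 and 3. In siLRWD1-5, COL3A1 was 2456 against 2799 and 2682 CPM, and in siLRWD1-6 1421 against 1822 and 1615 CPM. Of 51 genes listed as activated by EWS-FLI1, 11 were higher and 18 lower in scrambled series 2, and 11 and 9 by the interaction, with AURKA and AURKB, which are also mitotic genes, among the lower in scrambled. FLI1 and EWSR1, the partners of the fusion gene, did not pass the test (0.18 ± 0.10 and 0.11 ± 0.08 in scrambled). CD68, the only tested marker of other cell types, stood at 46.2 CPM in scrambled series 2 against 30.1 and 30.8 CPM in scrambled series 1 and 3. In siLRWD1-5, CD68 was 41.5 against 36.5 and 41.6 CPM, and in siLRWD1-6 27.7 against 27.1 and 26.8 CPM. CD68 was called higher in scrambled series 2 (0.60 ± 0.11, adjusted p = 0.000137); its part in the results was not tested.

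Lysosome and autophagy genes were higher in 16 and lower in 3 of 46 in scrambled series 2 (10 higher without scrambled series 3), and higher in 12 and lower in 0 by the interaction (7 without scrambled series 3 and 6 without siLRWD1-6 series 2). Ribosome biogenesis genes were higher in 18 and lower in 1 of 56 in scrambled (9 higher without scrambled series 1), but the interaction was called for 1 of them. Their median difference was 0.193 in scrambled, 0.145 in siLRWD1-5 and 0.074 in siLRWD1-6, so it lay above 0 in every group, although 0 were called in the siRNA groups. The share of members called was near or under the background of 13% and 12.1% for interferon response genes (3 higher and 4 lower of 44), cytosolic ribosomal proteins (2 and 0 of 76), oxidative phosphorylation (1 and 1 of 55) and the ATF4 response (9 and 8 of 53). Of the 8 tested loci of RNAs without a poly(A) tail, 0 were called in scrambled and 1 in the siRNA groups, RPPH1, the RNA of ribonuclease P, which stood at 0.486 CPM in scrambled series 2 against 0.569 and 1.47 CPM in scrambled series 1 and 3. In siLRWD1-5, RPPH1 was 2.96 against 0.441 and 0.568 CPM, and in siLRWD1-6 2.56 against 0.279 and 1.02 CPM. RPPH1 differed by 2.30 ± 0.37 in the siRNA groups (adjusted p = 0.00139).

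Single genes with the largest interactions are given next; some were called in scrambled but not in the siRNA groups, and others in both. HKDC1, a hexokinase, stood at 54.1 CPM in scrambled series 2 against 9.73 and 10.8 CPM in scrambled series 1 and 3. In siLRWD1-5, HKDC1 was 22.9 against 17.8 and 21 CPM, and in siLRWD1-6 16.9 against 15.6 and 21.5 CPM. VGF, a precursor of neuropeptides, stood at 31.4 CPM in scrambled series 2 against 4.93 and 6.64 CPM in scrambled series 1 and 3. In siLRWD1-5, VGF was 5.11 against 3.53 and 4.63 CPM, and in siLRWD1-6 7.53 against 5.78 and 4.83 CPM. SPP1, the matrix protein osteopontin, stood at 39.1 CPM in scrambled series 2 against 9.48 and 7.64 CPM in scrambled series 1 and 3. In siLRWD1-5, SPP1 was 4.15 against 2.33 and 2.76 CPM, and in siLRWD1-6 4.31 against 4.04 and 5.08 CPM. Scrambled series 2 was above every other library for these 3 genes, by 5.28-fold, 5.47-fold and 4.54-fold against scrambled series 1 and 3 (adjusted p = 7.13e-12, 1.2e-11 and 1.29e-11), while the siRNA groups differed by 0.06 ± 0.12, 0.42 ± 0.18 and 0.32 ± 0.20. LIF, a cytokine of the interleukin 6 family, stood at 23.3 CPM in scrambled series 2 against 2.59 and 2.7 CPM in scrambled series 1 and 3. In siLRWD1-5, LIF was 80.7 against 33.5 and 44.1 CPM, and in siLRWD1-6 14.9 against 9.27 and 10.3 CPM. LIF rose in both terms, by 3.13 ± 0.20 in scrambled and 0.84 ± 0.11 in the siRNA groups, and the interaction was called (2.30 ± 0.23, adjusted p = 2.29e-07). KRT75, a keratin of hair follicles, SERPINB7, ADAMTS9 and IL13RA2 likewise rose in both terms with a called interaction: KRT75 stood at 62 CPM in scrambled series 2 against 9.48 and 9.64 CPM in scrambled series 1 and 3. In siLRWD1-5, KRT75 was 55.2 against 23 and 23.1 CPM, and in siLRWD1-6 16.7 against 8.92 and 11.9 CPM. On the lower side, PCDH18, a protocadherin, stood at 4.78 CPM in scrambled series 2 against 20.2 and 16.4 CPM in scrambled series 1 and 3. In siLRWD1-5, PCDH18 was 6.15 against 6.3 and 8.04 CPM, and in siLRWD1-6 10.6 against 12.1 and 8.89 CPM. COLEC12, a scavenger receptor, stood at 3.73 CPM in scrambled series 2 against 18.1 and 14.8 CPM in scrambled series 1 and 3. In siLRWD1-5, COLEC12 was 1.85 against 3.09 and 2.76 CPM, and in siLRWD1-6 16.4 against 24 and 21.8 CPM. FLT4, the receptor of lymphatic growth factors, stood at 1.62 CPM in scrambled series 2 against 6.76 and 7.25 CPM in scrambled series 1 and 3. In siLRWD1-5, FLT4 was 7.7 against 9.39 and 11.6 CPM, and in siLRWD1-6 4.09 against 4.11 and 5.16 CPM. Scrambled series 2 was below both other scrambled libraries for the 3 genes, by 3.84-fold, 4.42-fold and 4.29-fold, while COLEC12 was lower still in siLRWD1-5.

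Series 3 and series 1 gave the ordinary variation between the other experiments. With group and series in the model, edgeR's quasi-likelihood test called 0% of genes higher and 0% lower between them, 0 of 13648 in all, with 461 genes at an unadjusted p under 0.05; DESeq2 and limma-voom called 0 as well. Without scrambled series 2, whose deviation enters the error of that model, 98 genes were called, 82 higher and 16 lower in series 3.

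Since both siRNA groups are compared with the same 3 scrambled libraries, scrambled series 2 entered every comparison of an siRNA with its control. Over all 9 libraries siLRWD1-5 differed from scrambled in 5292 genes, 2527 higher and 2765 lower, and siLRWD1-6 in 2265, 1203 higher and 1062 lower. Without scrambled series 2 the counts were 6790 for siLRWD1-5 and 3953 for siLRWD1-6. Of the genes called with all libraries, 2402 of 2527 and 2642 of 2765 were still called in the same direction for siLRWD1-5, and 1194 of 1203 and 1000 of 1062 for siLRWD1-6, and none turned over. With series 1 and 3 only, the counts were 6462 and 3579.

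The direction of some gene groups depended on the series within which the siRNA and scrambled libraries were compared. Each of these is 1 library against 1, with no test, and siLRWD1-5 and siLRWD1-6 share the scrambled library of a series. The median difference of the mitosis list between siLRWD1-5 and scrambled was -0.158 in series 1, 0.388 in series 2 and -0.271 in series 3, and between siLRWD1-6 and scrambled -0.161, 0.508 and -0.256. In series 2, 71 of 72 mitosis genes were above the scrambled library in siLRWD1-6, and in series 1 and 3, 60 and 70 of 72 were below it. The replication list gave -0.305, 0.106 and -0.371 for siLRWD1-5 and -0.233, 0.28 and -0.262 for siLRWD1-6. Cholesterol genes stood at -0.087, 0.479 and 0.005 with siLRWD1-5 and at 0.147, 0.759 and 0.318 with siLRWD1-6, so series 2 gave the highest value of both. MAPK feedback genes stood at -0.279, -0.618 and -0.348 with siLRWD1-5, below 0 in all series, and at 0.048, -0.305 and 0.105 with siLRWD1-6. NRF2 targets stood at -0.089, -0.315 and 0.071 with siLRWD1-5 and at 0.113, -0.132 and 0.198 with siLRWD1-6. The NF-kB list with siLRWD1-5 gave 1.149, 1.078 and 1.093 in the order of the series, and with siLRWD1-6 it gave 0.066, -0.111 and 0.262.

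**Figure D5:**
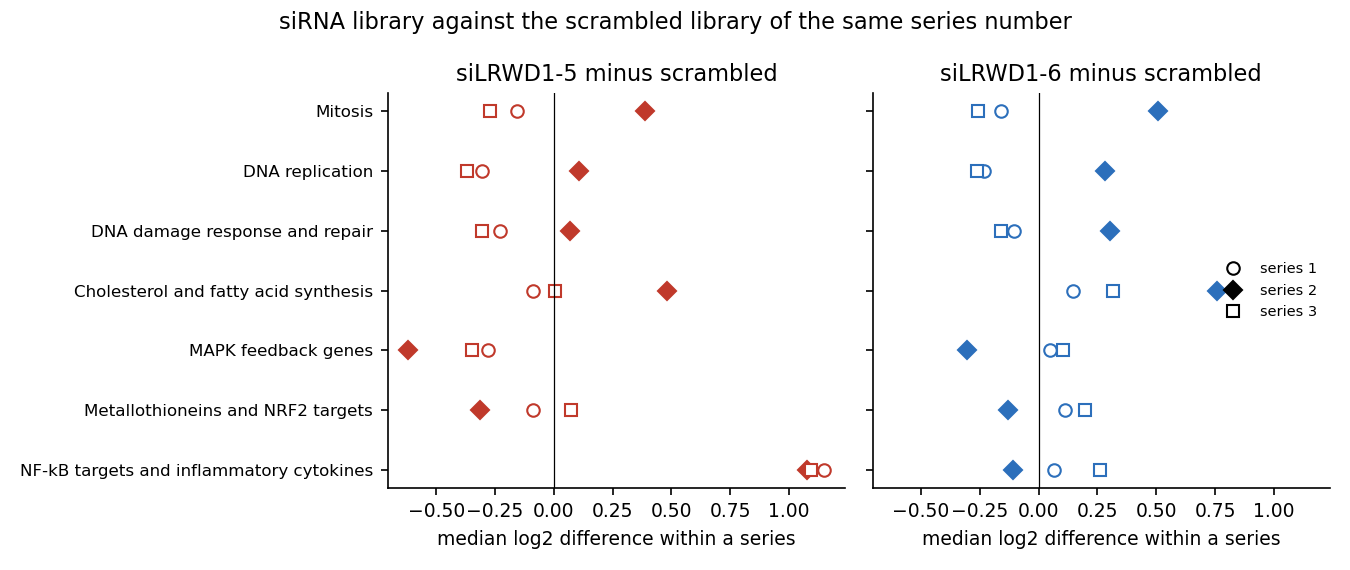
Median log2 difference between an siRNA library and the scrambled library of the same series number for 7 gene lists, with filled diamonds for series 2 and open symbols for series 1 and 3. Mitosis, replication and repair genes are left of 0 in series 1 and 3 and right of 0 in series 2 with both siRNAs, and NF-kB targets lie between 1.078 and 1.149 with siLRWD1-5 in all series.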

How the data were processed

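RNA was sequenced from 9 A673 cultures, and per the submitters' processing notes the authors used bcl2fastq 1.8.4, TopHat2 2.0.10 and HTSeq 0.5.4p3 with the build hg19; no source used here names the annotation or the strand setting. The deposited table holds raw read counts per gene symbol, and these counts were tested as deposited. Symbols with few counts were removed with edgeR 4.0.16 (filterByExpr on group), which kept at least 99.91% of the counts of each library, TMM factors were computed, and robust quasi-likelihood fits were tested with Benjamini-Hochberg adjustment over 13648 genes at 0.05. Models held siRNA group with 1 series 2 term (5 residual degrees of freedom), with a series 2 term in each group (3), or with series as 3 levels (4). SEs were derived from the F statistic. Overlapping and antisense genes may share reads.

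Genes were named as the 10 per direction and test with the largest difference among those called with a mean of at least 5 CPM and series 2 outside the range of series 1 and 3, plus up to 4 called members per list and test and other members with their values. Some genes that this rule names are not reported here. The members, the 31 gene lists and the tests were chosen with earlier results of these data known. DESeq2 1.42.0, limma-voom (limma 3.58.1), other scalings and filters and leaving out each library were the alternatives, and 1 fit of the siRNA libraries only was added after seeing the data. The tests were tried on simulated counts beforehand. Promoters came from RefSeq (GRCh38.p14), and coordinates are of that build.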

Additional observations from a re-analysis of the deposited data

Results flagged for a closer look

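The series 2 difference was not the same in scrambled as in the siRNA groups: the test of that interaction (edgeR's quasi-likelihood test, adjusted p under 0.05) called 753 genes with a higher and 747 with a lower difference in scrambled. Among genes set higher in scrambled, the log2 interaction was 2.34 for HKDC1, 2.3 for LIF, 2.03 for VGF, 1.89 for WNK4, a kinase of salt transport, 1.86 for SPP1, 1.83 for the metalloprotease ADAMTS9, 1.77 for SERPINB7, 1.72 for KRT75, 1.64 for the interleukin 13 receptor IL13RA2 and 1.59 for NOV, a matricellular protein. Among genes set lower it was -1.97 for ABCA1, -1.84 for PCDH18, -1.82 for VCAM1, -1.8 for FLT4, -1.63 for TMEM119, -1.62 for the tyrosine kinase SYK, -1.58 for SERTAD4, -1.58 for SREBF1 and -1.57 for the scavenger receptor COLEC12. Each rests on 1 scrambled library against 2. LIF, ADAMTS9, SERPINB7, KRT75 and IL13RA2 were also called higher in series 2 of the siRNA groups, so for these the sizes differ and the directions do not.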

How the results depend on the processing

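Among the genes called both as reported and under an alternative, none changed direction in the tests of series 2 against the others, of scrambled, of the siRNA groups and of the interaction, nor did any named entry. Without scrambled series 2, the median over the groups went from 0.11 to -0.014 for NRF2 targets and from 0.029 to -0.045 for lysosome genes. With library totals in place of TMM factors, the median in scrambled went from 0.028 to -0.037 for interferon genes, from 0.064 to -0.001 for ribosomal proteins and from 0.003 to -0.061 for the ATF4 response. The counts of called genes moved. For series 2 against the others (137 genes), the count was 548 without the count filter, 529 by DESeq2 and 14 to 912 with 1 library left out. For scrambled series 2 alone (3426), DESeq2 gave 1747. For the siRNA groups (117) it was 240 without the filter, 43 by DESeq2, 7 to 161 with 1 library left out, and 87 in the fit of the siRNA libraries alone, added after seeing the data. For the interaction (1500), DESeq2 gave 668 and leaving out 1 library 852 to 1724. Series 3 against series 1 (0) gave 0 to 98. For siLRWD1-6 against scrambled (2265), leaving out 1 library gave 1248 to 3953 and series 1 and 3 only 3579. Library totals in place of TMM factors gave 3101 higher and 2320 lower for siLRWD1-5 against scrambled, where TMM gave 2527 and 2765. Of 80 named entries, 33 lost their call without siLRWD1-5 series 2, and 119 of 1168 values over all settings did.

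Deviations from the group mean correlated by 0.048 to 0.371 for same-numbered libraries, lowest in series 3, and by -0.328 to 0.138 for other pairs. Of 9 libraries, 8 had their highest mean correlation with their own number. The main comparisons of an siRNA with scrambled held siRNA group only and so left this pairing out. A replicate block gave 76 genes for series 2 against the others, 449 for the siRNA groups, 2144 for the interaction and 5925 for siLRWD1-5 against scrambled. With 11971179 counts in the shallowest library, levels of a few CPM, as for IL6 and RPPH1, rest on few reads.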
